A study of Mus musculus with 6 samples.

Results

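The 8 genes described here belong to antigen presentation by MHC class II. They are *H2-Aa*, *H2-Ab1*, *H2-Eb1*, *H2-DMa*, *H2-DMb1*, *Cd74*, *Ciita* and *Ctss*, and they were picked by symbol from the 47729 genes of the deposited table. All 8 were found there and all 8 passed the filter on reads, among 19308 genes that did. The expression of each was measured by polyadenylated RNA sequencing in proximal tibial epiphyses of 14-day-old mice from generation 13 of a selection experiment, with 3 Control mice and 3 LS1 mice from different families, and 1 library per mouse from both of its epiphyses. LS1 (strain label Longshanks 1) is 1 of a pair of lines selected for a tibia that is long for the body mass. Control is the random-bred line of the same outbred stock, named ICR in the sample labels and CD-1 in the methods. No treatment was given to either group, and the sex of the mice is not given in the sources used here. The sampled piece held articular and growth plate cartilage, the bone of the ossification centre and metaphysis, and the marrow in it.

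MHC class II molecules display peptides from endocytosed proteins to CD4 T cells. An alpha and a beta chain pair in the endoplasmic reticulum, where the invariant chain encoded by *Cd74* fills the groove. In the endosome cathepsin S, encoded by *Ctss*, trims the invariant chain to a short fragment called CLIP, and the H2-DM heterodimer exchanges CLIP for peptide. Transcription of these genes is switched on by CIITA, a coactivator that binds no DNA itself and docks on factors bound to the X and Y boxes upstream of each gene. Dendritic cells, B cells and activated macrophages carry the pathway, and interferon gamma induces *Ciita* in many other cells.

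Promoter sequences are shown for the members in which a match to a short X or Y core was found. The sequences are from RefSeq on GRCm38.p6 and cover 250 bases before to 50 bases after the gene start, 5′ to 3′ on the strand of the gene. A RefSeq promoter was held for 5 of the 8 members (*H2-Aa*, *H2-Eb1*, *H2-DMa*, *H2-DMb1* and *Ctss*). Capitals mark the Y box core TGATTGG and the X box core AGNAACNGA, searched on both strands and spelled after the promoters had been read. All matches printed are on the strand of the gene, and the X and Y cores do not overlap.
*H2-Aa*, chr17:34287774-34288073, minus strand: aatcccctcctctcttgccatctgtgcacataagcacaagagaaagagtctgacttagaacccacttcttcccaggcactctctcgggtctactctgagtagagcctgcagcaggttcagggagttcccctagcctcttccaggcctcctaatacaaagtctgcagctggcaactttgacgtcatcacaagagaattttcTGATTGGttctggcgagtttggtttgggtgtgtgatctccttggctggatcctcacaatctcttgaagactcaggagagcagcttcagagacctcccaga
*H2-Eb1*, chr17:34305617-34305916, plus strand: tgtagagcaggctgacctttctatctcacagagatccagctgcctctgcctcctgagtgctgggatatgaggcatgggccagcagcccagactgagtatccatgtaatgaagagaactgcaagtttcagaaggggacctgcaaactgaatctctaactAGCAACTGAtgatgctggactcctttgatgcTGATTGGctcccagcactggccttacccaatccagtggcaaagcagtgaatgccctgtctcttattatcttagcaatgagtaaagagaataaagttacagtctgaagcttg
*H2-DMb1*, chr17:34152941-34153240, plus strand: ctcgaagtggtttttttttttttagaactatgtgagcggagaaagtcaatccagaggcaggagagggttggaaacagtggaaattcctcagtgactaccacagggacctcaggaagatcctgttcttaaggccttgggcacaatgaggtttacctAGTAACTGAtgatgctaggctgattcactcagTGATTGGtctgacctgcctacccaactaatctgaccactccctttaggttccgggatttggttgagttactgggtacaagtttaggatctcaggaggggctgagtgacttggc
The Y core begins 50 bases before the start of *H2-Aa*, 61 before that of *H2-Eb1* and 63 before that of *H2-DMb1*. The X core lies upstream of it in *H2-Eb1* and *H2-DMb1*, with 22 and 23 bases in between. Among all 32851 RefSeq promoters of this length, 7.82% held the Y core, 5.35% the X core and 0.381% both. Of 8 class II locus genes with a promoter in the table (the 4 members of that locus, *H2-Oa*, *H2-Ob*, *H2-DMb2* and *H2-Eb2*), 7 held the Y core and 4 both cores. In 1 of these 4, *H2-Oa*, the X match was on the opposite strand and downstream of the Y core. Neither core was found in the windows of *H2-DMa* and *Ctss*. The *H2-DMa* windows, chr17:34122582-34122881 and chr17:34125268-34125567, lie inside the annotated gene, and the first overlaps *Brd2* on the opposite strand. Sequence upstream of any other start of *H2-DMa* was not searched. These matches describe letters only and were not tested as binding sites.

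The values below are normalized counts, that is, reads counted per gene by the authors and divided by 1 size factor per library. The 6 libraries held 68803249 to 88745366 reads, with the 3 LS1 libraries the deepest. Of the LS1 libraries, replicate 2 had the highest values for most genes described here, and replicate 3 lay close to Control for many interferon-responsive genes, so results are given with and without LS1 replicate 2 where they rest on it. Cartilage and bone RNA was abundant in every library, with 1332243 to 2397352 reads of *Col2a1*, the main cartilage collagen, and 1833383 to 2255957 reads of *Col1a1*, that of bone. Across the transcriptome limma called 14 genes at an adjusted p-value under 0.05, 2 higher and 12 lower in LS1, and none of these 14 was a class II member.

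All 8 members had a higher mean in LS1 than in Control, and 50.7% of all genes tested were higher in LS1. In 6 of the 8 every LS1 library lay above every Control library. The same separation, LS1 above, was present in 10.3% of all genes tested. None of the members passed the adjusted threshold of limma (0 of 8, against 0.0725% of all genes), and 3 of 8 had an unadjusted p-value under 0.05 with LS1 higher, against 7.08% of all genes. With count tests on the recovered reads, edgeR called 0 members at an adjusted p-value under 0.05 and gave 8 of 8 an unadjusted p-value under 0.05 with LS1 higher, against 7.29% of all genes, while DESeq2 called 3 of 8 as higher at an adjusted p-value under 0.05, against 1.4% of all genes. The log2 fold changes from limma ran from 0.78 to 1.98 with a median of 1.27, beside a median of 0.0054 over all genes tested. Without LS1 replicate 2 the median over the members was 0.68. In that fit limma gave 6 of 8 an unadjusted p-value under 0.05 and called 0 at the adjusted threshold. The share of all genes under the unadjusted threshold in that fit is not given here. DESeq2 called 0 members without LS1 replicate 2, and also 0 without Control replicate 1 or Control replicate 2, 1 without LS1 replicate 1, 2 without Control replicate 3 and 4 without LS1 replicate 3. With 3 mice against 3, an exact permutation test (two-sided) cannot give a p below 0.1. In bulk tissue, a larger number of presenting cells and more class II RNA in each of them cannot be told apart.

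**Figure D1:**
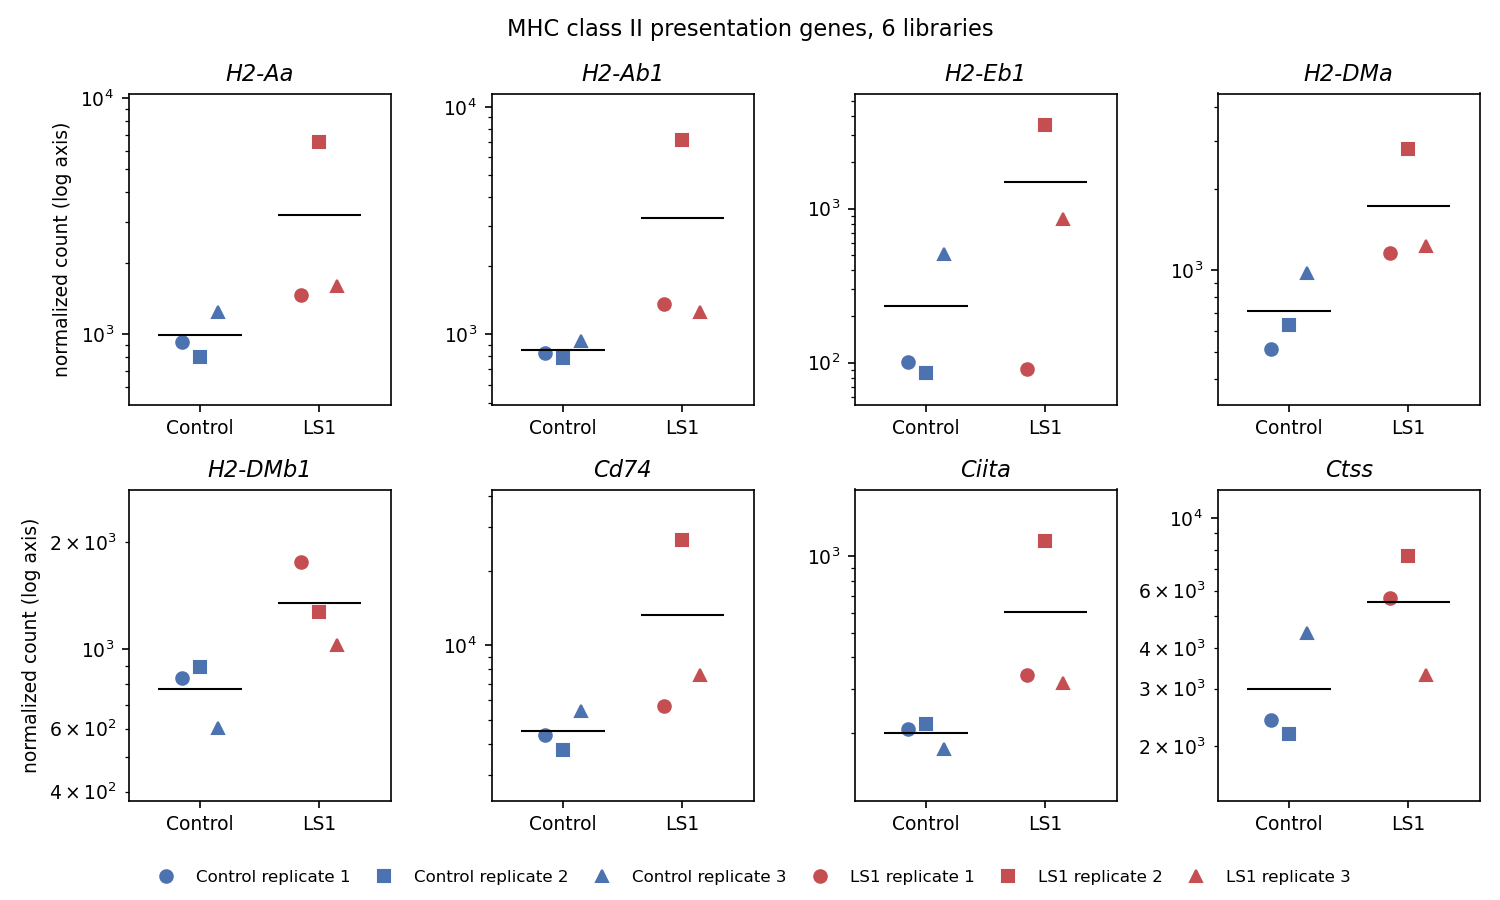
Normalized counts (log axis) of the 8 class II members in each library, with Control in blue, LS1 in red, a marker shape for each replicate number and a line at each group mean. LS1 replicate 2 is the highest library in 7 of the 8 genes, and in 15.0% of all genes tested. In *H2-Eb1* LS1 replicate 1 lies at 90.5, inside the range of Control, and in *H2-DMb1* LS1 replicate 1 is highest at 1752.

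*H2-Aa* (ENSMUSG00000036594) encodes the alpha chain of the I-A molecule and lies on chromosome 17 of GRCm38 from 34282744 to 34287823, on the minus strand. In Control it was measured at 927, 805 and 1249 normalized counts, and in LS1 at 1462, 6560 and 1596. The groups did not overlap, but LS1 replicate 2 stood 4.29-fold above the mean of the other LS1 libraries. The Control mean was 994 ± 229 (SD, n = 3 mice) and the LS1 mean 3206 ± 2905 (SD, n = 3). On the log2 scale LS1 was higher by 1.35 (standard error, SE, 0.63, limma adjusted p = 0.451). Without LS1 replicate 2 it was 0.64 (SE 0.22, limma adjusted p = 0.385).

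*H2-Ab1* (ENSMUSG00000073421, chromosome 17 from 34257689 to 34269419) encodes the beta chain that pairs with it. Control mice had 828, 783 and 937 normalized counts, and LS1 mice had 1354, 7164 and 1254. The Control libraries were close together (849 ± 79.2, SD, n = 3), every LS1 library lay above them, and LS1 replicate 2 was at 8.44 times the Control mean. The log2 fold change was 1.44 (SE 0.74, limma adjusted p = 0.492), and 0.62 (SE 0.19, limma adjusted p = 0.357) without LS1 replicate 2. The ratio of *H2-Aa* to *H2-Ab1* per kilobase of exon stayed between 0.619 and 0.901 over all 6 libraries, a range of 1.46-fold. Their log2 values had a Pearson correlation of 0.99 over the 6 libraries, which share their depth and tissue makeup.

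*H2-Eb1* (ENSMUSG00000060586, chromosome 17 from 34305867 to 34316674), the beta chain of the I-E molecule, followed another order. Control mice had 101, 85.4 and 510 normalized counts, and LS1 mice had 90.5, 3504 and 852. LS1 replicate 1 was as low as Control replicates 1 and 2, and Control replicate 3 lay nearer to LS1 replicate 3 than to the other Control mice. The log2 fold change of 1.98 came with an SE of 1.68 (limma adjusted p = 0.678, 95% interval -2.56 to 6.51), and the groups overlapped (exact permutation test, two-sided p = 0.3). Without LS1 replicate 2 it was 0.76 (SE 1.35, limma adjusted p = 0.87), and without LS1 replicate 1 it was 3.39 (SE 1.20, limma adjusted p = 0.417). No difference between the lines was detectable at this spread. Relative to *H2-Ab1*, per kilobase of exon, *H2-Eb1* was at 0.161, 0.144 and 0.719 in Control and at 0.0883, 0.646 and 0.897 in LS1, a range of 10.2-fold. Of its 40-base windows 0.252% occur in another gene, *H2-Eb2*.

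**Figure D2:**
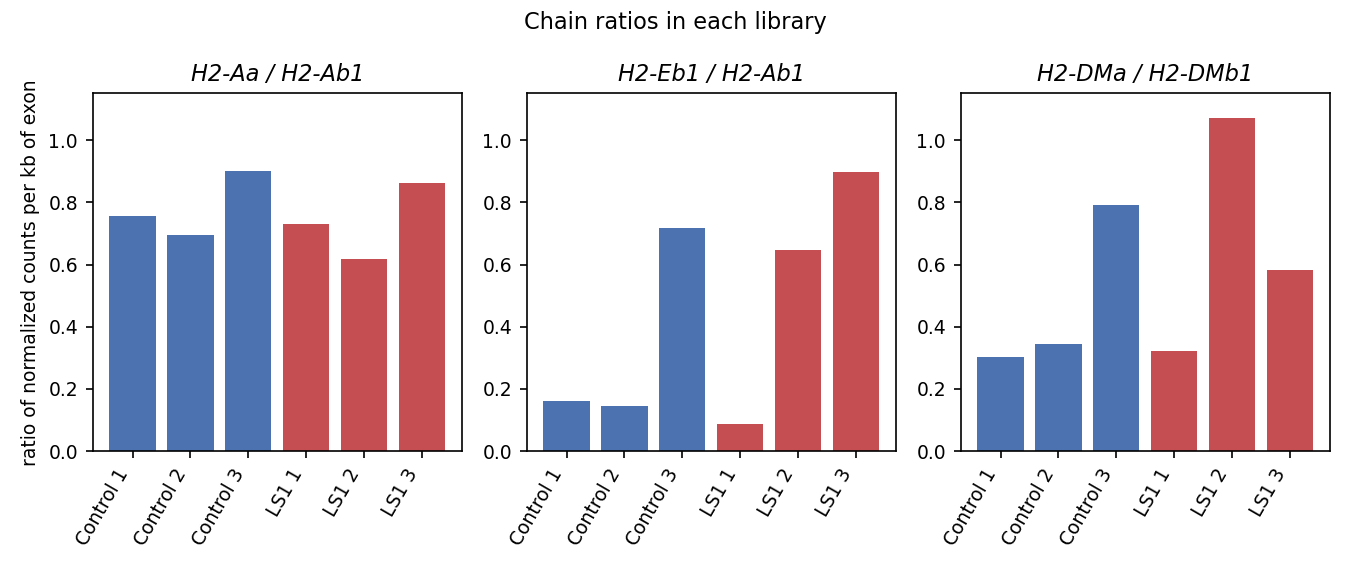
Ratio of normalized counts per kilobase of exon in each library for *H2-Aa* over *H2-Ab1* (0.619 to 0.901), *H2-Eb1* over *H2-Ab1* (0.0883 to 0.897) and *H2-DMa* over *H2-DMb1* (0.302 to 1.07), with Control bars in blue and LS1 bars in red. The first ratio is level, and the other ratios are higher in Control replicate 3 and LS1 replicates 2 and 3 than in the other 3 libraries.

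*Cd74* (ENSMUSG00000024610, chromosome 18 from 60803848 to 60812652), the invariant chain, was the most abundant member per kilobase of exon in 4 of the 6 libraries, and *Ctss* was above it in Control replicate 3 and LS1 replicate 1. It had 4347, 3791 and 5435 normalized counts in Control and 5686, 26487 and 7595 in LS1. The groups were separate, though LS1 replicate 1 exceeded Control replicate 3 only narrowly. The log2 fold change was 1.22 (SE 0.64, limma adjusted p = 0.499) and was 0.55 (SE 0.20, limma adjusted p = 0.392) without LS1 replicate 2. Per kilobase of exon, *Cd74* was at 2695 in Control on average, *H2-Ab1* at 331, *H2-Aa* at 262 and *H2-Eb1* at 119. Invariant chain RNA was thus in excess of the chains it binds in every library, with a ratio to *H2-Ab1* of 5.65 to 9.27.

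*Ciita* (ENSMUSG00000022504, chromosome 16 from 10480059 to 10528418), the coactivator of class II genes, was the least abundant per kilobase of exon. Control mice had 209, 217 and 174 normalized counts, and LS1 mice had 339, 1149 and 317. Control was again tight (200 ± 23.1, SD, n = 3), each LS1 library was above it, and LS1 replicate 2 was at 5.75 times the Control mean. The log2 fold change was 1.32 (SE 0.44, limma adjusted p = 0.291, 0.00858 from DESeq2). Without LS1 replicate 2 it was 0.72 (adjusted p = 0.395 from limma, 0.187 from DESeq2). *Ciita* overlaps *Dexi* on the opposite strand, whose counts of 922 to 1123 differed little between libraries. The ratio of *Cd74* to *Ciita* per kilobase of exon ran from 95.3 to 178 and did not separate the lines.

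*H2-DMa* (ENSMUSG00000037649, chromosome 17 from 34119541 to 34139101) and *H2-DMb1* (ENSMUSG00000079547, chromosome 17 from 34153072 to 34160230) encode the chains of the peptide exchange factor H2-DM. *H2-DMa* had 514, 630 and 981 normalized counts in Control and 1156, 2794 and 1230 in LS1, without overlap. Its log2 fold change was 1.21 (SE 0.36, limma adjusted p = 0.259, 0.00848 from DESeq2), and 0.81 without LS1 replicate 2 (adjusted p = 0.188 from DESeq2). *H2-DMb1* had 829, 894 and 604 in Control and 1752, 1271 and 1030 in LS1. It was the only member in which LS1 replicate 2 was not the highest library. Its log2 fold change of 0.78 had the smallest standard error of the 8 members (0.23, adjusted p = 0.238 from limma, 0.0423 from DESeq2), and without LS1 replicate 2 it was 0.81 (adjusted p = 0.119 from DESeq2). Its value thus did not rest on that library, although the DESeq2 call was lost in the fit without it.

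The counts of *H2-DMb1* carry a limit of shared sequence that is small in the other members. Of its 40-base windows, 26.8% also occur in *H2-DMb2*, the neighbouring gene for a near-identical beta chain, and the reads were 35 to 50 bases long, so part of the reads of either gene could be split between them or dropped. For the 7 other members at most 0.827% of windows were shared with another gene. For all 8 members, how far the sequence of these outbred mice differs from the GRCm38 reference, and whether that changed the counts, was not examined. *H2-DMb2* had 196, 228 and 263 normalized counts in Control and 338, 380 and 453 in LS1, also without overlap, with a log2 fold change of 0.77 (SE 0.23, limma adjusted p = 0.246). The ratio of *H2-DMa* to *H2-DMb1* per kilobase of exon ranged over 3.55-fold, with its 3 highest values in Control replicate 3 and LS1 replicates 2 and 3, as for *H2-Eb1*. *H2-DMa* overlaps the abundant gene *Brd2* on the opposite strand, whose counts of 17995 to 25237 did not follow it.

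*Ctss* (ENSMUSG00000038642, chromosome 3 from 95526786 to 95556403), the protease that trims the invariant chain, had 2394, 2173 and 4436 normalized counts in Control and 5683, 7663 and 3312 in LS1. LS1 replicate 3 was below Control replicate 3, so the groups overlapped (exact permutation test, two-sided p = 0.2). The log2 fold change was 0.88 (SE 0.38, limma adjusted p = 0.394). It was 1.21 (adjusted p = 0.116 from limma) without LS1 replicate 3 and 0.61 (adjusted p = 0.539 from limma) without LS1 replicate 2. *Ctss* is expressed by osteoclasts and macrophages as well as by presenting cells, and its level relative to *Cd74*, per kilobase of exon, varied from 0.358 in LS1 replicate 2 to 1.24 in LS1 replicate 1.

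**Figure D3:**
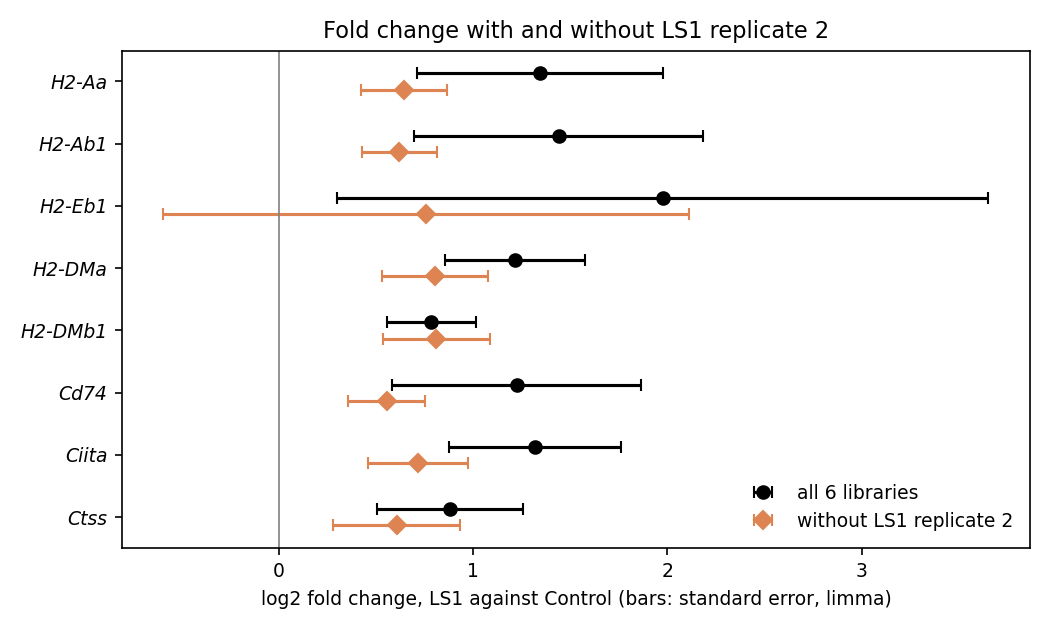
Log2 fold change of each class II member, LS1 against Control, from limma with all 6 libraries (black circles) and without LS1 replicate 2 (orange diamonds), with bars of 1 standard error. Without that library the point is lower for 7 of the 8 genes, with *H2-DMb1* the exception at 0.81 against 0.78, and all 8 stay above zero.

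The other genes of the pathway were 15, namely further locus genes, endosomal proteases and reductases, ubiquitin ligases and costimulators. Of these, 11 were higher and 4 lower in LS1, and 50.7% of all genes tested were higher. Limma called 0 at an adjusted p-value under 0.05. At an unadjusted p-value under 0.05, 6 were higher and 1 lower, against 7.08% and 5.86% of all genes tested. The median log2 fold change was 0.43, and it was 0.30 without LS1 replicate 2 and 0.23 without LS1 replicate 3. DESeq2 called 1 as higher, *March1*, a ligase that marks class II molecules for turnover (log2 fold change 0.76 from limma, adjusted p = 0.236 from limma and 0.0324 from DESeq2), and its DESeq2 adjusted p was 0.222 without LS1 replicate 2. Over all genes tested DESeq2 called 1.4% as higher. *H2-Ob*, a chain of H2-DO, which restrains H2-DM, had 110, 153 and 395 normalized counts in Control and 126, 386 and 428 in LS1. Its order of libraries was like that of *H2-Eb1*, with Control replicate 3 high and LS1 replicate 1 low, and its log2 fold change was 0.55 (SE 0.60, limma adjusted p = 0.741). *H2-Oa*, the other chain of H2-DO, was at 118, 106 and 85.2 in Control and 78.1, 109 and 79.3 in LS1. *Ifi30*, a thiol reductase that opens disulfide bonds of antigens, was at 7694, 8758 and 12167 in Control and 6608, 8376 and 9134 in LS1. *Lgmn*, an asparaginyl endopeptidase of the endosome, was at 12137, 10825 and 13776 in Control and 15119, 16493 and 17884 in LS1, without overlap (log2 fold change 0.43, SE 0.14, limma adjusted p = 0.259). *H2-Eb2*, another beta chain gene of I-E, had 51.5, 36.6 and 106 normalized counts in Control and 69.5, 65.3 and 83 in LS1, with overlap. *H2-Ea-ps*, the I-E alpha chain gene, which the annotation names as a pseudogene, had 53.5, 33.3 and 22.1 in Control and 99, 69.6 and 50.4 in LS1, and its groups overlapped (limma adjusted p = 0.337). *Ctsl*, the protease that takes the place of cathepsin S in thymic epithelium, had 6785, 7232 and 8792 in Control and 9747, 6737 and 8161 in LS1 (log2 fold change 0.10, limma adjusted p = 0.823). Control and LS1 overlapped in each of these 3 genes.

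The factors upstream of the members were described next. The 7 factors that bind the X and Y boxes had log2 fold changes of -0.17 to 0.14, 4 higher and 3 lower, and none had an unadjusted p-value under 0.05. The 8 genes of the interferon gamma axis were all higher in LS1, beside 50.7% of all genes tested, with a median log2 fold change of 0.24. Of the 8, 1 was higher at an unadjusted limma p-value under 0.05, against 7.08% of all genes tested. *Irf1*, a transcription factor of this axis, had 3151, 3019 and 3420 normalized counts in Control and 6047, 15754 and 2851 in LS1. For *Irf1* LS1 replicate 3 lay below the range of Control. In that library *Ctss* (3312) was inside the range of Control, and the other members were above all Control libraries. These are values of 1 library, and the part of the interferon gamma axis in the class II values was not tested. *Ifng* itself was sparse, at 11.1, 0 and 8.8 in Control and 113, 222 and 6.5 in LS1 (adjusted p = 0.398 from limma).

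The members sit in part in 1 stretch of chromosome 17, from *H2-Oa* to *H2-Eb2* (34092340 to 34341412), which holds 19 genes of the table. Of these, 16 were tested and 13 were higher in LS1, beside 50.7% of all genes tested. Limma called 0, and the median log2 fold change was 0.78. *Tap1*, a subunit of the peptide transporter, had 7466 normalized counts in LS1 replicate 2 and 1158 in LS1 replicate 3, and *Psmb9*, an immunoproteasome subunit, had 5527 and 1045. Both were near Control in LS1 replicate 3. *Tap2*, the other transporter subunit, had 2759 in LS1 replicate 2 and 1080 in LS1 replicate 3, and 801 in LS1 replicate 1, against 735, 734 and 1044 in Control.

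**Figure D4:**
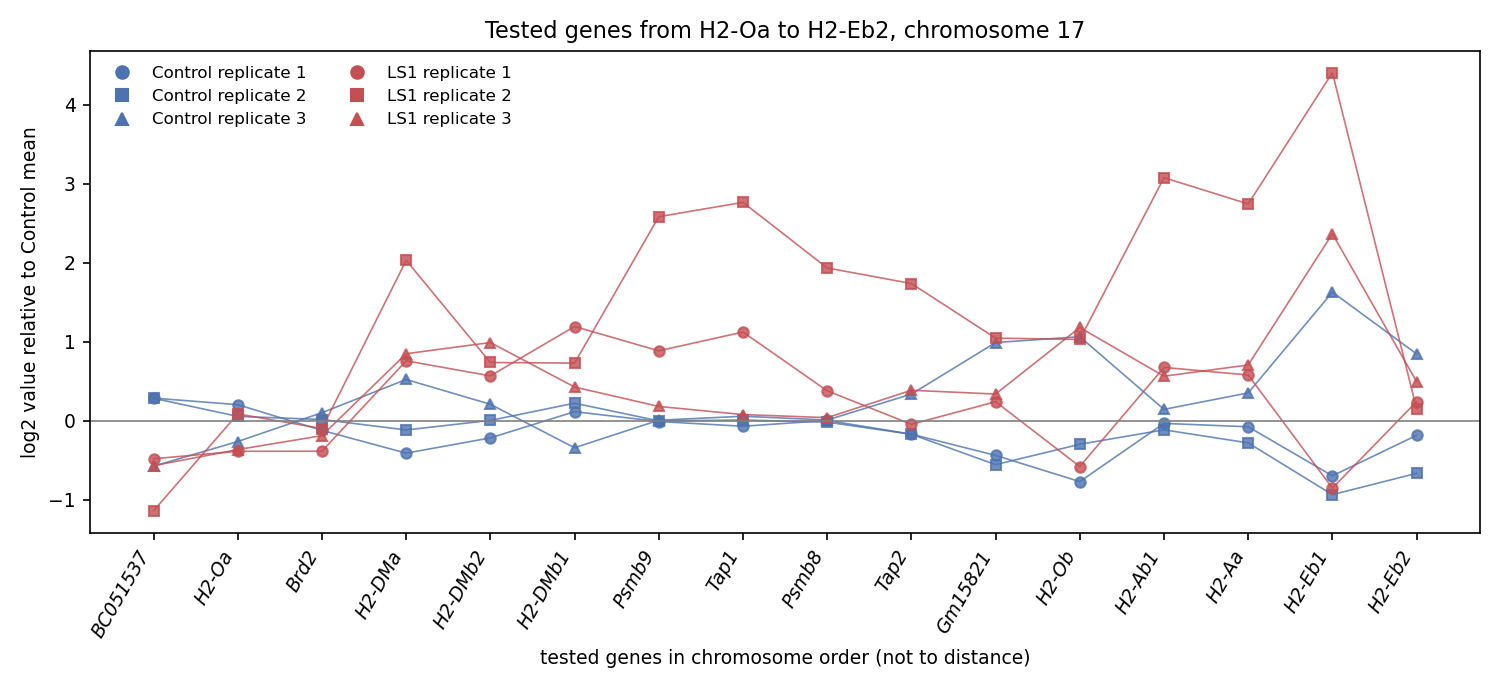
Log2 of each library's normalized count over the Control mean for the tested genes from *H2-Oa* to *H2-Eb2*, in their order on chromosome 17. LS1 replicate 2 is high for *Psmb9*, *Tap1* and *Psmb8* as for *H2-Aa*, *H2-Ab1*, *H2-Eb1* and *H2-DMa*, while LS1 replicate 3 is near zero for *Psmb9*, *Tap1* and *Psmb8*. In LS1 replicate 2 *H2-Oa* (0.088) and *H2-Eb2* (0.15) are near zero, and *H2-DMb1* is at 0.73.

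The gene lists of other cell types and programmes were set beside the members library by library. For the counts of higher genes below, the share over all genes tested was 50.7%. The members had median log2 values, relative to the Control mean, of 0.72, 2.54 and 0.69 in LS1 replicates 1, 2 and 3. The 10 class I pathway genes were at 0.73, 1.90 and 0.13 and the 12 interferon-stimulated genes at 1.62, 2.95 and 0.052. LS1 replicate 3 was thus nearer to Control in these lists than in the members, as a description of 1 library. Macrophage markers were at 0.26, 0.51 and 0.16, with 11 of 12 higher in LS1 and summed normalized counts of 43713 to 59303 in Control and 57631 to 79163 in LS1. Dendritic cell markers were at 0.28, 0.53 and 0.17, with 9 of 12 higher and sums of 7637 to 8224 in Control and 8606 to 9394 in LS1. T cell markers were at 0.39, 1.06 and 0.11, with 8 of 9 higher and a median log2 fold change of 0.25 without LS1 replicate 2. Their sums were 2177 to 3114 in Control and 2617, 5013 and 2623 in LS1 replicates 1, 2 and 3. B cell markers were lower in LS1, at -0.54, -0.84 and -0.22, with 13 of 14 lower. Their sums were 57116 to 60685 in Control and 34563 to 53939 in LS1. Limma called none at the adjusted threshold, and 9 of 14 were lower at an unadjusted p-value under 0.05, against 5.86% of all genes. DESeq2 called 2 of 14 as lower, against 174 of 19308 genes tested. In 6 of 14 every LS1 library lay below every Control library, as in 1726 of 19308 genes tested. Neutrophil markers were at 0.088, 0.19 and 0.41, with 7 of 8 higher, and the 10 cartilage and bone markers at -0.063, 0.31 and 0.37, with 7 higher. No marker list had a summed level of 0 in any library, and the part of these cells in the class II values was not tested.

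**Figure D5:**
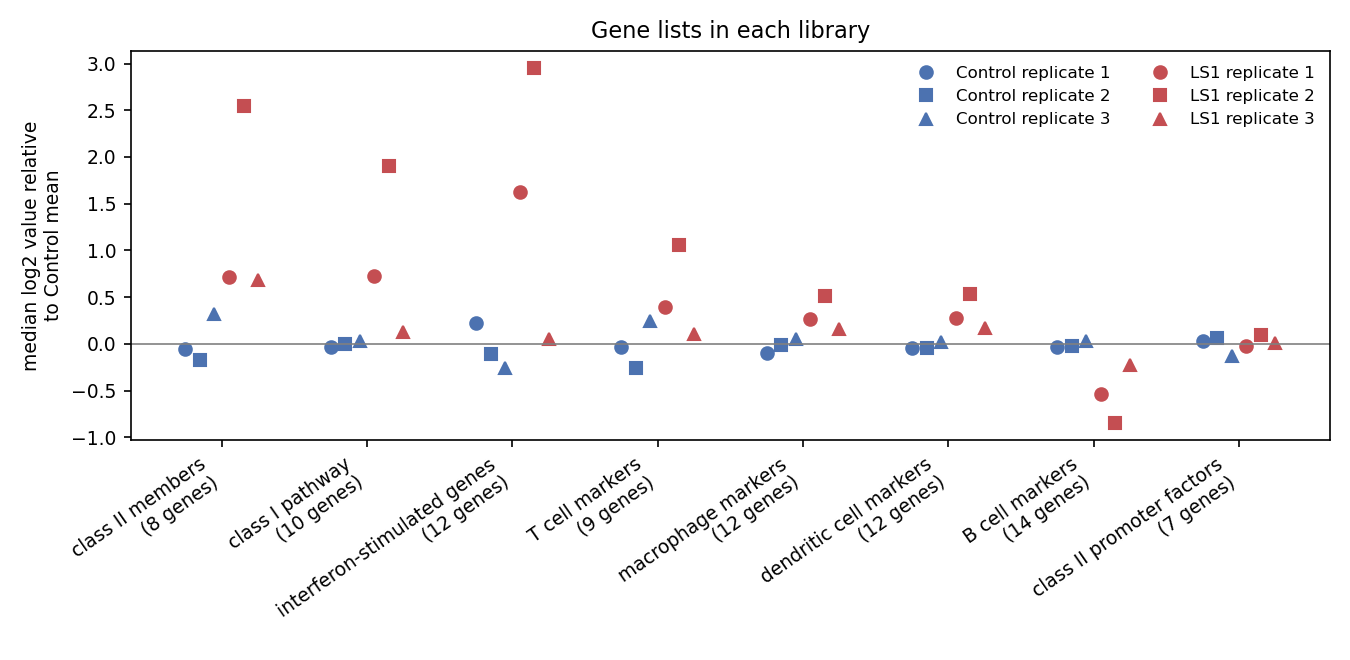
Median over each gene list of log2 normalized count relative to the Control mean, by library, with Control in blue and LS1 in red. The class II members are at 0.72, 2.54 and 0.69 in the LS1 libraries, B cell markers are below zero in all 3, and class I and interferon-stimulated genes are near zero in LS1 replicate 3.

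*H2-Ab1* was also set against every marker of 3 cell types, as a ratio in each library and with no test. The ratio was higher in all LS1 libraries than in all Control libraries for 13 of 14 B cell markers, 7 of 12 macrophage markers and 5 of 12 dendritic cell markers. The same held for 65.9% of all other genes tested, as *H2-Ab1* itself was higher in every LS1 library than in any Control library. The lists hold 14, 12 and 12 markers, and no difference of their shares from that of all genes was tested.

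The genes whose log2 values over the 6 libraries were most like the mean of *H2-Aa*, *H2-Ab1*, *H2-Eb1* and *Cd74* were sought among 14770 genes with a mean of at least 100 reads. Of these, 169 (1.14%) had a Pearson correlation over 0.9, and since the libraries share depth and tissue makeup this is a description only. Outside the 8 members, which were left out of the ranking, the 10 highest were *Riox2*, *Itgb7*, *Tm6sf1*, *Nkg7*, *Nfil3*, *Tap2*, *Efhd2*, *Aste1*, *Galnt12* and *Ifitm3*, with correlations of 0.999 to 0.978. A correlation does not measure size. LS1 replicate 2 was at 1.22 to 1.49 times the Control mean in *Riox2*, *Tm6sf1*, *Nfil3*, *Efhd2*, *Aste1* and *Galnt12*. It was at 2.35 to 3.29 times in *Itgb7*, *Nkg7*, *Tap2* and *Ifitm3*. Among the members, *H2-DMb1* had a correlation of 0.27 and *Ctss* of 0.77, and the others had 0.895 to 0.990. *Itgb7*, an integrin of lymphocytes, had 1651, 1640 and 2138 normalized counts in Control and 1834, 4247 and 2309 in LS1. *Nkg7*, a granule protein of cytotoxic cells, had 527, 506 and 677 in Control and 685, 1843 and 943 in LS1. In both, LS1 replicate 2 was the highest library, and LS1 replicate 1 was inside the Control range for *Itgb7* and just above it for *Nkg7*.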

How the data were processed

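RNA from 6 mice, 3 Control and 3 LS1 by the strain label, was sequenced on a SOLiD 5500xl. The authors aligned reads with HISAT2 2.0.2 to GRCm38, counted them with featureCounts 1.4.6 and normalized with DESeq2. The deposited values are a signal, counts divided by 1 size factor per library. Whether counting used strand is not given in the sources used here. Whole reads were recovered for 100% of values (tolerance 0.01). In Control replicate 1, where 1 read had a value of 1.009, recovered reads and deposited values lie close together (919 and 927.256 for *H2-Aa*). Total reads were 68803249 to 88745366. Symbols and exon lengths came from GENCODE and promoters from RefSeq GRCm38.p6.

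Genes with a mean of at least 20 reads were tested on log2(value + 1) with limma 3.58.1 (trend and robust), adjusted by Benjamini-Hochberg at 0.05, so fold changes of low genes are understated. edgeR 4.0.16 and DESeq2 1.42.0 on recovered reads, other pseudocounts and filters, TMM scaling, a replicate block and leaving out each library were alternatives. The scripts were tested on simulated data. The members, gene lists and tests were chosen with earlier results of these data known. Genes were named by membership, as a set group of pathway genes (*H2-Oa*, *H2-Ob*, *H2-DMb2*, *H2-Eb2*, *H2-Ea-ps*, *Ifi30*, *Lgmn*, *Ctsl*, *Irf1*), by likeness (the 10 most correlated) or as abundant markers. *March1*, *Jak2*, *Ifng*, *Tap1*, *Psmb9* and *Psmb8* were singled out after their values were seen. P-values measure the spread between mice of 1 generation. A further gene fixed for naming is not reported here.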

Additional observations from a re-analysis of the deposited data

How the results depend on the processing

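Over 22 settings, 166 of 176 member values kept their direction and side of the threshold, 10 passed it and 0 reversed. The median over the members moved by less than the pooled SD of 0.773. That SD includes LS1 replicate 2, at 2.54 against 0.72 and 0.69 in LS1 replicates 1 and 3. It therefore cannot show stability to leaving out that library, where the limma median was 0.68 against 1.27. The number of genes called over all tested, 14 with limma, was 7 with edgeR, 444 with DESeq2, 45 without a filter, 9 with a filter at 100 reads and 3 with plain limma. It ran from 5 (without Control replicate 2) to 324 (without LS1 replicate 3) with limma, with DESeq2 it was 242, 157 and 243 without Control replicate 1, 2 and 3 and 629, 285 and 958 without LS1 replicate 1, 2 and 3, and was 5 with edgeR without Control replicate 1. The fits that left out a library with DESeq2 or edgeR were chosen after seeing the data. DESeq2 called 3 members with all libraries, and 0 to 4 when a library was left out, with 0 in 3 of these 6 fits. Leaving out each library with limma, the log2 fold change of *H2-Eb2* ran from -0.034 (without Control replicate 2) to 0.72 and that of *Ctsl* from -0.027 (without LS1 replicate 1) to 0.24. With DESeq2 those libraries gave -0.13 and -0.045. The cause was not tested.

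Same-lettered samples had correlations of their deviations from the group means of 0.054, 0.021 and 0.224, not all of them over 0.1, and what the letters mark is not stated, so the samples were not treated as paired. With the replicate block 12 genes and 0 members were called, and the median over the members was 1.27.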
